A study of Homo sapiens with 18 samples.

Results

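The genes described here are 7 matrix metalloproteinases (MMP1, MMP2, MMP3, MMP8, MMP9, MMP13 and MMP14) and 3 tissue inhibitors of metalloproteinases (TIMP1, TIMP2 and TIMP3). They are 10 of the 60603 genes counted, were picked by name after earlier results of the same data were known, and each matched 1 gene identifier in both count tables. Their messenger RNA was measured by poly(A) RNA-seq in MDA-MB-231 cells, an established line of triple-negative breast adenocarcinoma, in 18 libraries from 9 conditions with 2 biological replicates each. In the transient system, cells received an empty vector or a FLAG-ZMYND8 vector and, 24 h later, vehicle or 0.6 µM doxorubicin for 48 h. This gave control cells, doxorubicin-treated cells, and cells labelled as FLAG-ZMYND8 plus doxorubicin. In the inducible system, a lentiviral pInducer20 construct for doxycycline-inducible GFP or FLAG-ZMYND8 was stably introduced and selected through its neomycin resistance. All 12 inducible cultures, the GFP controls included, received 250 ng/mL doxycycline 4 h before doxorubicin at 0.6 µM for 0, 6 or 48 h. Each construct is represented by 1 cell line, so construct and line cannot be told apart. The labels give no drug-free inducible culture kept for 6 or 48 h. A change with doxorubicin in this system therefore cannot be told apart from a change with time in culture or with longer doxycycline treatment. The same holds for a difference in response between the lines. Doxorubicin is an anthracycline that poisons topoisomerase II, and ZMYND8 is a chromatin reader of acetylated histones. The study asked how raised ZMYND8 alters the expression response of these cells to a low dose of the drug.

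Matrix metalloproteinases are zinc-dependent endopeptidases that cut the proteins of the extracellular matrix and many cell surface proteins. Most are secreted as inactive proenzymes, whereas MMP14 is held in the plasma membrane and activates pro-MMP2 at the cell surface together with TIMP2. TIMPs bind the active site of the enzymes and block it, and TIMP3 is the member that stays attached to the matrix. In tumours these enzymes are known for their part in invasion, and several of their genes respond to growth factors, cytokines and stress through AP-1 and ETS factors. The data here are messenger RNA levels only, so neither secretion nor activation of an enzyme was measured.

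On hg38, as annotated in the count tables (GENCODE release 31), 4 of the metalloproteinase genes lie in the chromosome 11q22 cluster. They are MMP8 (chr11:102711796-102727050), MMP1 (chr11:102789919-102798160), MMP3 (chr11:102835801-102843609) and MMP13 (chr11:102942995-102955732), all on the minus strand. MMP2 lies at chr16:55389700-55506691, MMP9 at chr20:46008908-46016561 and MMP14 at chr14:22836560-22849027, each on the plus strand. TIMP1 lies at chrX:47582408-47586789 and TIMP3 at chr22:32801701-32863043 on the plus strand, and TIMP2 at chr17:78852977-78925387 on the minus strand. Counts are sums over all exons of a gene, UTRs included. Exons of another gene on the opposite strand cover 18.4% of the exon bases of MMP9 (SLC12A5-AS1), 7.61% of MMP1 and 1.73% of MMP3 (both WTAPP1), and 6.52% of TIMP2. Without strand information such reads could not be assigned to 1 gene.

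Promoter sequences from RefSeq (GRCh38.p14) were at hand for 4 of the 10 genes. They are shown for that reason and not for their pattern. MMP8, MMP14 and TIMP3 were lower and TIMP1 was higher in ZMYND8 than in GFP cells. MMP14, TIMP1 and TIMP3 were lower after 48 h of doxorubicin in both inducible lines, and MMP8 only in GFP cells. Each line is the 250 bases before the transcription start, read 5′ to 3′ on the strand of the gene, and capitals mark a GC box (GGGCGG, or CCGCCC on the other strand), which SP1 binds, or the TATA-like word TATAAA. The windows are chr11:102724955-102725204 (minus strand) for MMP8, chr14:22836335-22836584 for MMP14, chrX:47582186-47582435 for TIMP1 and chr22:32801455-32801704 for TIMP3 (all plus strand). The RefSeq starts lie inside the GENCODE spans given above, furthest for MMP8, whose whole window lies within its span.
MMP8: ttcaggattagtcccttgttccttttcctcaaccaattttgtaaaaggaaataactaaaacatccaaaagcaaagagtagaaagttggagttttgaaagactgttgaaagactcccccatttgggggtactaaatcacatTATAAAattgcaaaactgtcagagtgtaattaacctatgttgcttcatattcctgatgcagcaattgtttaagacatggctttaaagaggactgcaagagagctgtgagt
MMP14: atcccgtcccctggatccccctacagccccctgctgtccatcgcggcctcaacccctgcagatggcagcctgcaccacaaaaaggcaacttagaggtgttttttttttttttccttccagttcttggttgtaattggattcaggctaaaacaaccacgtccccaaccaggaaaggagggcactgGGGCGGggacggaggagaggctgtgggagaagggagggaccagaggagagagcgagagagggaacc
TIMP1: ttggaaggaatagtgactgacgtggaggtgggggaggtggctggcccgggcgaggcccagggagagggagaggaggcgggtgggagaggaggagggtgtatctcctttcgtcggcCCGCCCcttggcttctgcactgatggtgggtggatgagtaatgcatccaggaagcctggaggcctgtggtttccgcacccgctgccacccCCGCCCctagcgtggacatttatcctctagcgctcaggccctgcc
TIMP3: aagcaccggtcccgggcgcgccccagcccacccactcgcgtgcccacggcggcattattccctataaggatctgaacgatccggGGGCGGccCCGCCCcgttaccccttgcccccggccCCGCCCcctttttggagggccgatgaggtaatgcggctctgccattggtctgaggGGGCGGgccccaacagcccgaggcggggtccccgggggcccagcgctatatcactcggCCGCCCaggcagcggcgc
The MMP8 window held TATAAA at -110 and no GC box, and 36.4% of its bases were G or C. MMP14 held 1 GC box, TIMP1 held 2 and TIMP3 held 5, with GC contents of 56.8%, 64.8% and 72.4%. Across 35116 promoters of the same length, read on both strands, 42.6% held GGGCGG and 10.7% held TATAAA. The AP-1 word TGAGTCA was in 4.20% of them and in none of these 4 windows. Only this exact word was searched, and near matches, such as tgagtaa in the TIMP1 window, were not counted. A word found in this way is a description of the sequence and not an occupied site. RefSeq promoters of MMP1, MMP2, MMP3, MMP9, MMP13 and TIMP2 were not used here.

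The libraries held 5729294 to 24713822 counts in the transient system and 18300628 to 23724398 in the inducible system. ZMYND8 itself, in CPM (counts scaled to library size with TMM factors), was at 208 and 209 in untreated GFP cells and 922 and 927 in untreated ZMYND8 cells, and it was higher in ZMYND8 cells at every time by at least 2.15 on the log2 scale (SE 0.046). These counts do not separate the introduced from the native gene. In the transient system the libraries labelled FLAG-ZMYND8 held 160 and 125 CPM of ZMYND8, not above the 182 and 123 CPM with doxorubicin alone (log2 difference -0.09, SE 0.23, edgeR adjusted p = 1.00), so the data do not show the labelled overexpression. Replicate 2 with doxorubicin and replicate 2 labelled FLAG-ZMYND8 plus doxorubicin lay closer than any other pair of transient libraries (chi-square over degrees of freedom 1.39, against 9.71 to 55.6). Transient results are therefore also given without both. Of the 6 markers of this cell line, all 6 passed 3 counts in every condition. Passing 3 counts is not specific, since 4 of 5 luminal and 4 of 4 endothelial markers also did so in untreated GFP cells. There the line markers summed to 7790 and 7754 CPM, the luminal markers to 23.6 and 21.9 and the endothelial markers to 6.69 and 6.49. RNA per cell was not measured, so a level is a share of a library, and fewer cells with a transcript cannot be told apart from less transcript per cell.

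In both systems the RNA of this group came mainly from 4 genes, MMP14 and the 3 inhibitors, each at 95.9 to 1205 CPM in every library. MMP1 was next in the inducible lines, and in transient control cells it was at 1.09 CPM, beside 1.07 for MMP8 and 1.12 for MMP9. MMP2, MMP3, MMP8, MMP9 and MMP13 were low, with at most 194 counts in any library. Of the 90 pairs of gene and condition, 17 had at most 3 counts in both libraries and are treated as bounds rather than levels. MMP13 gave 6 of these, MMP2 gave 4, MMP3 and MMP8 gave 3 each, and MMP9 gave 1. Just inside that limit were MMP13 in untreated GFP cells (3 and 1 counts) and MMP2 in ZMYND8 cells at 6 h (1 and 2 counts), and just outside it MMP2 in ZMYND8 cells at 48 h (3 and 4 counts) and MMP9 in ZMYND8 cells at 6 h (0 and 6 counts). The filter on low counts kept 9 of the 10 genes in the inducible system (MMP13 was left out) and 4 in the transient system (MMP14, TIMP1, TIMP2 and TIMP3).

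**Figure D1:**
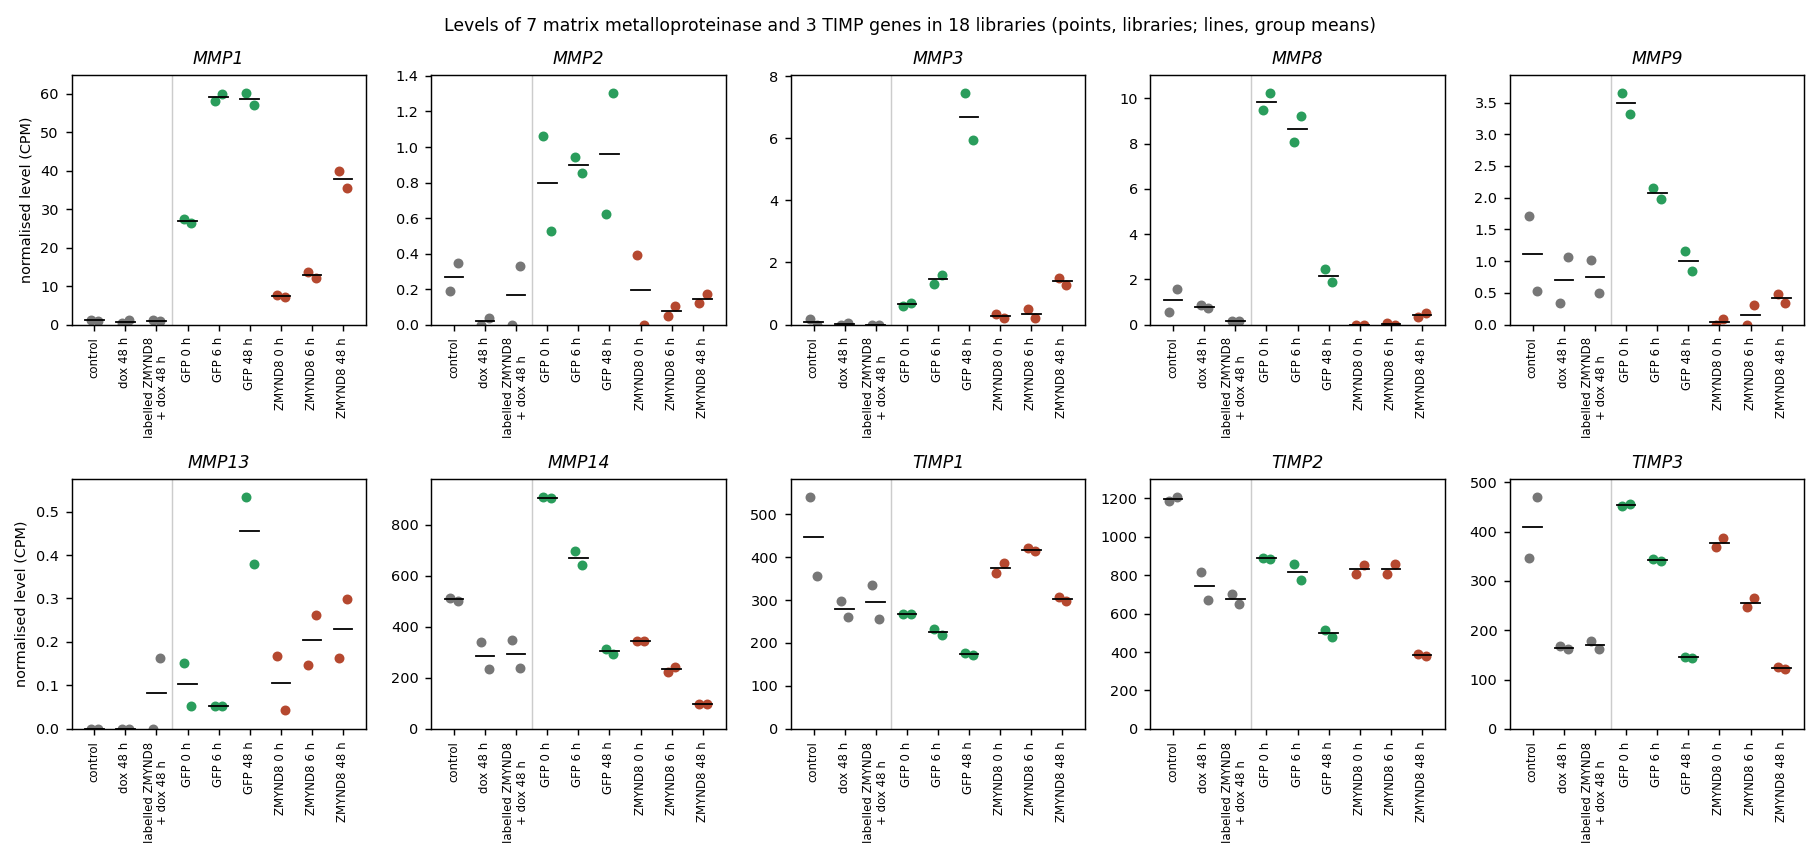
Level of each of the 10 genes (CPM on a linear axis, scaled separately for each gene) in every library of the 9 conditions, 1 point per library and 2 per condition. MMP14 and the 3 TIMPs lie at 95.9 CPM or above everywhere, while MMP2, MMP3, MMP8, MMP9 and MMP13 lie near or at the limit of a few counts in many libraries.

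ZMYND8 cells were compared with GFP cells at each time. Leaving out MMP8, whose difference between the lines was already known and is described without a test, 8 genes were tested across all 18801 genes (edgeR quasi-likelihood test, called at a Benjamini-Hochberg adjusted p of at most 0.05). Without doxorubicin 1 was higher (TIMP1), 6 were lower (MMP1, MMP2, MMP3, MMP9, MMP14 and TIMP3) and TIMP2 was not called. Of all genes tested, 58.3% were called (28.7% higher and 29.5% lower), and because the genes were chosen with these contrasts known, nothing is read from their count. On their ZMYND8 libraries alone, MMP2 and MMP9 would not have passed the low-count filter. The direction of their calls between the lines was thus partly fixed in advance, and these calls are not read as support. At 6 h the same 7 genes were called in the same directions (55.5% of all genes called, 28.9% higher and 26.6% lower). At 48 h all 8 were called, TIMP1 higher and the other 7, now with TIMP2, lower (60% of all genes called, 28.4% higher and 31.6% lower). The median log2 difference of the 8 was -1.32, -1.77 and -0.94 at 0, 6 and 48 h, where that of all genes was 0.00, 0.00 and -0.04. These medians include MMP2 and MMP9 and rest on genes chosen with the contrasts known. They are descriptions and are not read as a shift of the group.

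Doxorubicin was compared with no doxorubicin within each line, and these comparisons share their untreated libraries. Drug and time cannot be told apart in them. After 48 h in GFP cells, MMP1 and MMP3 rose and MMP8, MMP9, MMP14, TIMP1, TIMP2 and TIMP3 fell, so that 8 of 9 genes were called beside 64.2% of all genes (32.4% higher and 31.8% lower). In ZMYND8 cells 8 of 9 were also called at 48 h, beside 62.3% of all genes (31.6% higher and 30.8% lower). MMP1, MMP3, MMP8 and MMP9 rose there, and MMP14 and the 3 inhibitors fell. At 6 h, MMP1 and MMP3 rose and MMP14, TIMP1, TIMP2 and TIMP3 fell in GFP cells (6 of 9 called, beside 47.9% of all genes, 22.1% higher and 25.8% lower). In ZMYND8 cells MMP1 and TIMP1 rose and MMP14 and TIMP3 fell (4 of 9 called, beside 40.8% of all genes, 21.8% higher and 19% lower). By the study's own cutoffs (unadjusted p of at most 0.05 and a log2 fold change of 1.5 or more in size), 3, 5 and 3 of the 8 genes differed between the lines at 0, 6 and 48 h (11.4%, 10.6% and 9.44% of all genes). With doxorubicin, 0 and 5 of the 9 passed them in GFP cells (4.71% and 13.2% of all genes) and 0 and 6 in ZMYND8 cells (2.73% and 12.4%) at 6 and 48 h. The share at the adjusted threshold was near the background at 6 h in ZMYND8 cells, and no share is read as a result about the group. The number of genes detected was 22477 to 23609 at 0 and 6 h and 30201 to 30566 at 48 h, and scaling to total counts instead of TMM moved the median of all genes from 0.03 to 0.27 in GFP cells and from 0.05 to 0.25 in ZMYND8 cells at 48 h. The part of this shift in the values below was not tested.

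**Figure D2:**
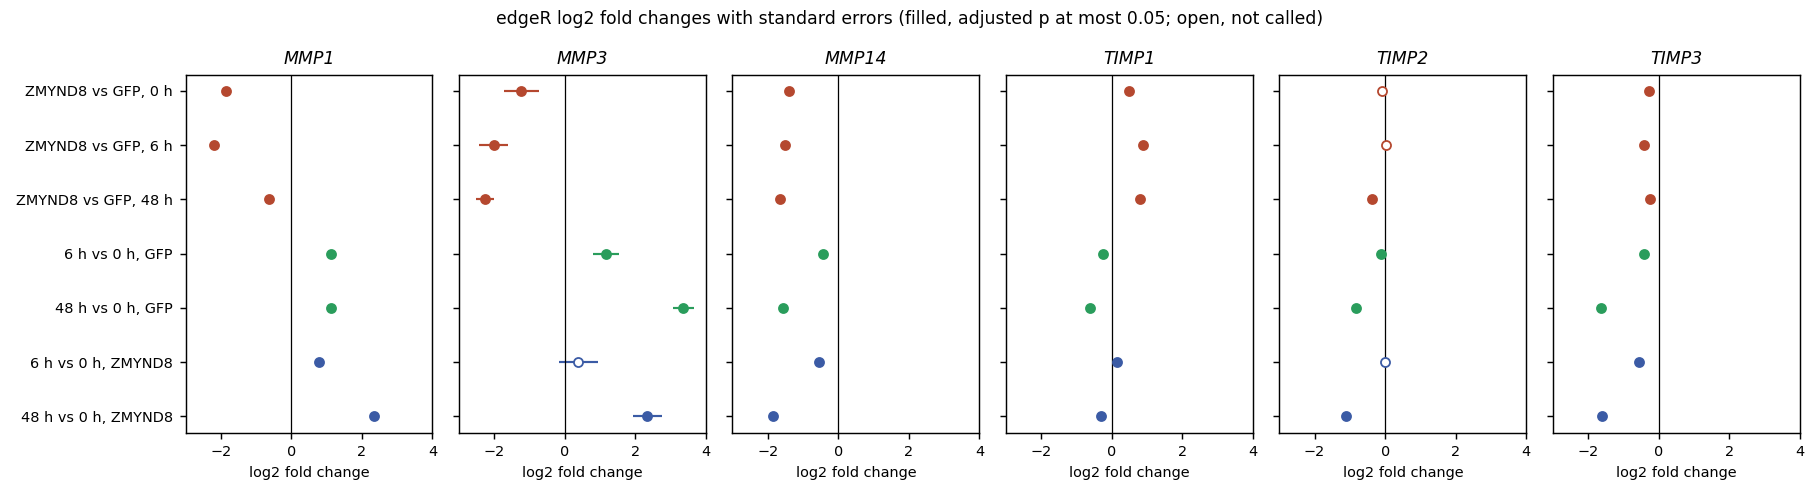
Log2 fold change of MMP1, MMP3, MMP14, TIMP1, TIMP2 and TIMP3 in the inducible system with its standard error, for ZMYND8 against GFP cells at 0, 6 and 48 h and for 6 or 48 h of doxorubicin against none in each line. MMP14 is below 0 in every comparison, from -0.44 to -1.84, and TIMP1 is above 0 in all 3 comparisons of ZMYND8 with GFP cells, from 0.49 to 0.89.

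MMP14, the membrane-type enzyme, had the highest level per kilobase of exon of the 7 enzymes in every condition. Its level was 908 and 906 CPM in untreated GFP cells, 696 and 643 CPM at 6 h and 314 and 295 CPM at 48 h of doxorubicin. ZMYND8 cells had 343 and 346, 224 and 244, and 96.3 and 95.9 CPM. No 2 of these 6 conditions overlapped, and untreated ZMYND8 cells were already near GFP cells after 48 h of drug. The log2 difference of ZMYND8 from GFP cells was -1.39 (SE 0.045, adjusted p = 7.96e-20), -1.51 (SE 0.046, adjusted p = 2.73e-20) and -1.66 (SE 0.048, adjusted p = 1.19e-20) at 0, 6 and 48 h. The log2 fold change of MMP14 with doxorubicin was -0.44 (SE 0.043) at 6 h and -1.58 (SE 0.045) at 48 h in GFP cells, and -0.56 (SE 0.046) and -1.84 (SE 0.048) in ZMYND8 cells. The fall at 48 h was larger in ZMYND8 cells by -0.27 (SE 0.065, adjusted p of the interaction 0.0023). Markers of fibroblasts, which also express MMP14, summed to 29.9 to 30.9 CPM in untreated GFP and 11.6 to 14.3 CPM in untreated ZMYND8 cells. Of the 5, 3 and 4 passed 3 counts, and DCN had 2 and 0 counts in each line. The part of fibroblast transcripts in the MMP14 difference was not tested.

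TIMP1, the secreted inhibitor on the X chromosome, was the gene of the group that was higher in ZMYND8 cells. It stood at 267 and 268 CPM in untreated GFP cells, 233 and 219 at 6 h and 177 and 171 at 48 h. ZMYND8 cells had 363 and 387 CPM untreated, 421 and 415 at 6 h and 307 and 297 at 48 h, so the lowest ZMYND8 library lay above the highest GFP library. The log2 difference was 0.49 (SE 0.042, adjusted p = 7.52e-11), 0.89 (SE 0.042, adjusted p = 5.46e-16) and 0.79 (SE 0.042, adjusted p = 5.56e-15) at 0, 6 and 48 h. In GFP cells TIMP1 fell at 6 and 48 h, with log2 fold changes of -0.24 (SE 0.043) and -0.62 (SE 0.043). In ZMYND8 cells it was higher at 6 h by 0.15 (SE 0.041, adjusted p = 0.0032) and lower at 48 h by -0.32 (SE 0.041, adjusted p = 1.93e-07). The rise at 6 h was not called with total-count scaling (0.07, adjusted p = 0.143) or without replicate 1 of untreated ZMYND8 cells (0.11, adjusted p = 0.083). The response of TIMP1 differed between the lines by 0.40 at 6 h (SE 0.059, adjusted p = 3.22e-05) and by 0.30 at 48 h (SE 0.059, adjusted p = 0.00026).

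TIMP2, the inhibitor that also links MMP14 to pro-MMP2, was at 891 and 884 CPM in untreated GFP and 808 and 854 CPM in untreated ZMYND8 cells (adjusted p = 0.084). At 6 h it was at 860 and 774 CPM in GFP cells and 806 and 856 CPM in ZMYND8 cells, with overlapping libraries. It then dropped to 515 and 479 CPM in GFP cells and 391 and 380 CPM in ZMYND8 cells at 48 h. The fall over 48 h was -0.84 (SE 0.047) in GFP cells and -1.11 (SE 0.047) in ZMYND8 cells, a difference of -0.27 (SE 0.066, adjusted p of the interaction 0.0024). The called fall at 6 h in GFP cells was small, -0.12 (SE 0.046, adjusted p = 0.037), and the call was lost when either untreated GFP library or replicate 2 at 6 h was left out (-0.05 to -0.12, adjusted p 0.10 to 0.539). It was also lost with RLE size factors (adjusted p = 0.068), no filter (0.241), only the groups compared (0.081) or DESeq2 (0.072).

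TIMP3, the matrix-bound inhibitor, fell with doxorubicin in both lines. Its levels were 453 and 457, 345 and 341, and 146 and 144 CPM in GFP cells and 369 and 386, 247 and 265, and 125 and 122 CPM in ZMYND8 cells at 0, 6 and 48 h. The fall over 48 h of doxorubicin was -1.65 (SE 0.042, adjusted p = 5.72e-22) and -1.61 (SE 0.042, adjusted p = 1.56e-21), and the interaction was 0.04 (95% interval -0.08 to 0.15, adjusted p = 0.71). ZMYND8 cells were lower than GFP cells by -0.27, -0.42 and -0.23 on the log2 scale at 0, 6 and 48 h (SE 0.040 to 0.043). These differences were smaller than those of MMP14 at every time.

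Levels of different genes were compared per kilobase of exon (CPM/kb). In untreated GFP cells MMP14 ranked first of the 10 at 203 CPM/kb, ahead of TIMP1 (185), TIMP2 (157) and TIMP3 (98.8). In ZMYND8 cells at all 3 times the order was TIMP1, TIMP2, TIMP3, MMP14. The ratio of MMP14 to TIMP1 was 1.10 ± 0.0066 (SD, n = 2) in untreated GFP cells, 0.960 ± 0.013 at 6 h and 0.566 ± 0.010 at 48 h. In ZMYND8 cells it was 0.298 ± 0.012, 0.182 ± 0.013 and 0.103 ± 0.0021, lower than in every GFP library. The ratio of MMP14 to TIMP3 was 2.06, 2.01 and 2.17 at 0, 6 and 48 h in GFP cells and 0.944, 0.945 and 0.804 in ZMYND8 cells. The 7 enzymes summed to 222, 184 and 103 CPM/kb in GFP cells and 81.4, 59.5 and 41.9 in ZMYND8 cells, whereas the 3 inhibitors summed to 441, 376 and 240 in GFP and 489, 492 and 304 in ZMYND8 cells. MMP14 made up 91.5% and 91.7% of the enzyme sum in untreated GFP cells but 50.1% and 52.9% in ZMYND8 cells at 48 h, where MMP1 made up most of the remainder. These ratios are of messenger RNA and say nothing of active enzyme.

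**Figure D3:**
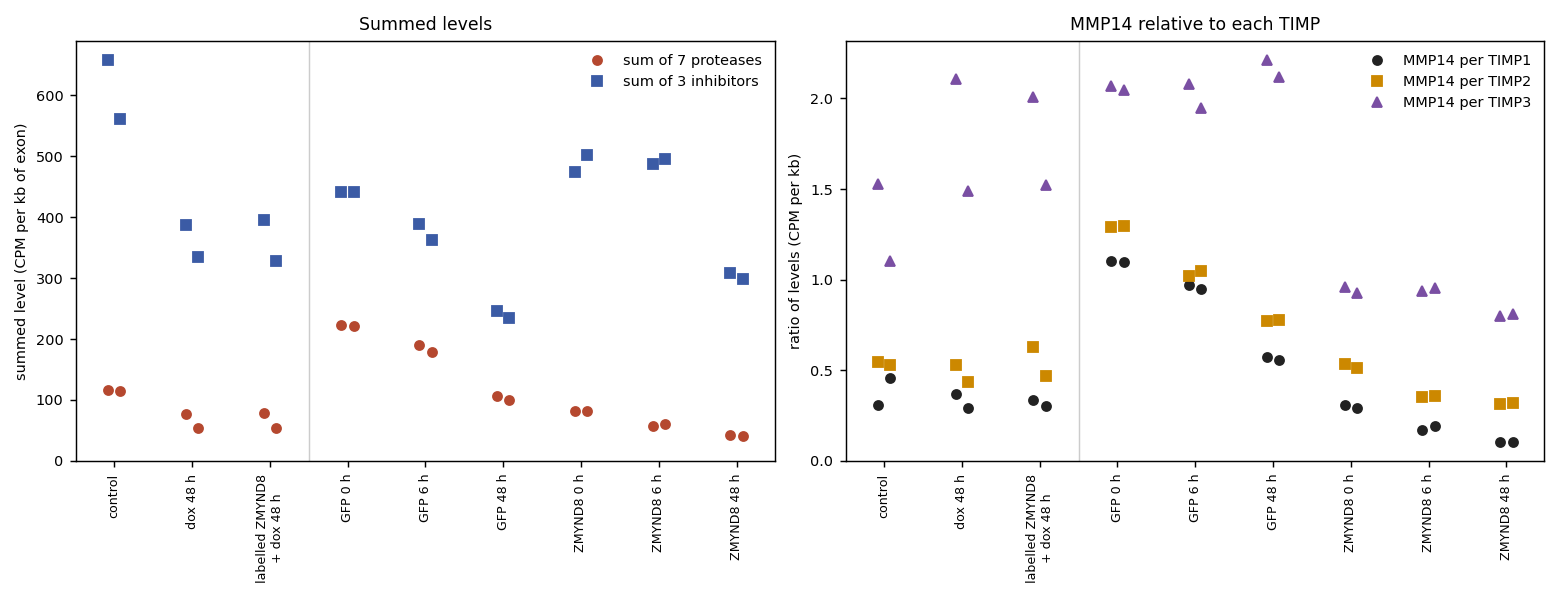
Ratio of MMP14 to each TIMP and summed levels of the 7 enzymes and the 3 inhibitors, in CPM per kilobase of exon, 1 point per library. The ratio of MMP14 to TIMP1 falls from 1.10 to 0.566 over 48 h in GFP cells and from 0.298 to 0.103 in ZMYND8 cells.

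MMP1, the interstitial collagenase that cuts fibrillar collagens, rose with doxorubicin in both lines. It had 541 and 502 counts in untreated GFP libraries, 1107 and 1122 at 6 h and 1357 and 1361 at 48 h. ZMYND8 cells had 139 and 166, 277 and 233, and 984 and 837 counts. In CPM the GFP means were 26.9, 59.1 and 58.7, with overlapping libraries at 6 and 48 h, and the ZMYND8 means were 7.51, 12.9 and 37.8. The rise in GFP cells was thus present by 6 h, while most of the rise in ZMYND8 cells lay between 6 and 48 h. On the log2 scale MMP1 rose by 1.13 (SE 0.072) and 1.12 (SE 0.071) in GFP cells and by 0.79 (SE 0.11) and 2.34 (SE 0.091) in ZMYND8 cells. The response at 48 h was larger in ZMYND8 cells by 1.21 (SE 0.12, adjusted p = 1.02e-08), and at 6 h it differed by -0.34 (SE 0.13, adjusted p = 0.093). ZMYND8 cells remained lower at every time, by -1.85 (SE 0.097, adjusted p = 3.24e-15), -2.19 (SE 0.081, adjusted p = 2.30e-18) and -0.63 (SE 0.067, adjusted p = 4.14e-09).

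MMP8, the collagenase best known from neutrophils, had 187 and 194 counts in untreated GFP cells, 154 and 172 at 6 h and 55 and 45 at 48 h. ZMYND8 cells had 0 and 0, 1 and 0, and 8 and 12 counts. The direction of change with doxorubicin was therefore opposite in the lines. In GFP cells MMP8 fell by 2.18 on the log2 scale at 48 h (SE 0.21, adjusted p = 1.09e-09). In ZMYND8 cells it was at least 2.80-fold higher at 48 h than the limit of 3 counts per untreated library (adjusted p = 5.09e-05). GFP cells had 326 counts at 6 h against 1 in ZMYND8 cells, a ratio of 340 with a 95% counting interval of 60.6 to 13461, and at 48 h the mean levels were 2.17 and 0.418 CPM. Intervals of this kind cover counting error only. The 6 leukocyte markers summed to 19.1 to 20.3 CPM in untreated GFP cells and 2.45 to 2.51 CPM in untreated ZMYND8 cells, and 3 and 2 of them passed 3 counts. CD14 made up most of this sum (18.3 to 19.8 and 2.01 to 2.35 CPM). Of the other markers, MPO and ELANE were at 0 in all untreated and 6 h libraries of both lines. The part of leukocyte transcripts in the MMP8 values was not tested.

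MMP13, another collagenase, was close to the limit of detection. It had 3 and 1, 1 and 1, and 12 and 9 counts in GFP cells and 3 and 1, 3 and 5, and 4 and 7 counts in ZMYND8 cells at 0, 6 and 48 h. Summed over libraries, 21 counts at 48 h stood against 4 without drug in GFP cells (ratio 4.39, 95% counting interval 1.48 to 17.6) and 11 against 4 in ZMYND8 cells (ratio 2.33, 0.69 to 10.03). No test across genes was made for MMP13, and an exact permutation test of 2 against 2 libraries cannot go below p = 0.333.

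MMP3, stromelysin 1, which cuts proteoglycans and can activate other pro-MMPs, increased over 48 h in both lines. Its counts were 12 and 13, 25 and 30, and 168 and 141 in GFP cells and 6 and 5, 10 and 4, and 37 and 30 in ZMYND8 cells. The rise over 48 h was 3.36 (SE 0.30, adjusted p = 1.85e-10) in GFP and 2.34 (SE 0.42, adjusted p = 2.37e-05) in ZMYND8 cells, and the interaction was -1.02 (SE 0.60, adjusted p = 0.226). Unlike MMP1, MMP3 in GFP cells rose further after 6 h, from 1.46 to 6.69 CPM. ZMYND8 cells were lower by -2.02 (SE 0.41, adjusted p = 0.00012) at 6 h and -2.26 (SE 0.26, adjusted p = 2.02e-08) at 48 h. The difference without drug, -1.24 (SE 0.49, adjusted p = 0.033), was not called without either GFP library or without replicate 2 of ZMYND8 cells (-0.94 to -1.32, adjusted p 0.064 to 0.214). It was also not called with no filter (adjusted p = 0.070), only the groups compared (0.060) or DESeq2 (0.078). The rise at 6 h in GFP cells (1.17, SE 0.36, adjusted p = 0.0091) was likewise not called without replicate 1 of untreated GFP cells (1.082, adjusted p = 0.062) or replicate 2 at 6 h (1.02, adjusted p = 0.070).

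Among the gelatinases, which cut denatured collagen and basement membrane collagen, MMP9 showed the pattern of MMP8. It had 72 and 63, 41 and 37, and 26 and 20 counts in GFP cells and 0 and 2, 0 and 6, and 12 and 8 counts in ZMYND8 cells. In GFP cells MMP9 fell by 1.80 on the log2 scale over 48 h (SE 0.38, adjusted p = 0.00015). In ZMYND8 cells it rose from 2 to 20 counts over both libraries (ratio 8.47, 95% counting interval 2.06 to 74.8, adjusted p = 0.0063). Without drug, 135 counts in GFP stood against 2 in ZMYND8 cells (ratio 71.1, 19.3 to 593, adjusted p = 6.07e-09), and at 6 h the difference was -3.70 (SE 0.57, adjusted p = 3.00e-06). At 48 h it had narrowed to -1.25 (SE 0.49, adjusted p = 0.029), a call lost without replicate 1 of GFP cells (-1.01, adjusted p = 0.168) or replicate 2 of ZMYND8 cells (-1.02, adjusted p = 0.156). MMP9 passed the low-count filter through its GFP libraries, so the adjusted p-values between the lines are not read as support. The summed leukocyte markers given beside MMP8, mostly CD14 without drug, were likewise lower in ZMYND8 cells. In GFP cells these markers stood at 21.4 to 21.8 CPM at 48 h. In ZMYND8 cells they were at 5.69 to 6.55 CPM at 48 h, and their part in the MMP9 values of either line was not tested.

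MMP2, the gelatinase that MMP14 activates, had 21 and 10, 18 and 16, and 14 and 31 counts in GFP cells and 7 and 0, 1 and 2, and 3 and 4 counts in ZMYND8 cells. No change with doxorubicin was called in either line, and the GFP conditions overlapped. ZMYND8 cells were lower at 6 h, with 3 against 34 counts (ratio 11.8, 95% counting interval 3.71 to 60.1, adjusted p = 0.0011). They were also lower without drug by -2.15 (SE 0.74, adjusted p = 0.014) and at 48 h by -2.68 (SE 0.70, adjusted p = 0.0016). The call without drug was lost without replicate 1 of GFP cells (-1.56, adjusted p = 0.173) or replicate 2 of ZMYND8 cells (-1.02, adjusted p = 0.236), and the call at 48 h without replicate 2 of GFP cells (-2.05, adjusted p = 0.053). MMP2 passed the low-count filter only through its GFP libraries, so the adjusted p-values between the lines are not read as support. The fibroblast markers given beside MMP14, a cell type that expresses MMP2, moved in the same direction, and their part in the difference was not tested.

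The difference in response between the lines was called for 1 of 8 genes at 6 h (TIMP1, higher, beside 13.4% of all genes called, 7.86% higher and 5.52% lower) and for 5 of 8 at 48 h (beside 28.6% of all genes called, 12.7% higher and 15.8% lower). At 48 h the response of MMP1, MMP9 and TIMP1 was more positive in ZMYND8 cells and that of MMP14 and TIMP2 more negative. For MMP2, MMP3 and TIMP3 it was not called. MMP9 passed the low-count filter through its GFP libraries, so its interaction is not read as support. The study's cutoffs kept 0 of 8 at 6 h (2.01% of all genes) and 1 at 48 h, MMP9 (3.7% of all genes). TIMP1 therefore fell less in ZMYND8 cells, and MMP14 and TIMP2 fell more.

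The 11q22 cluster holds 9 metalloproteinase genes over 435 kb (chr11:102520508-102955732), 4 of them described above. Of the other 5, MMP12, the macrophage elastase, had 0 and 0 counts in untreated GFP cells and 23 and 31 at 48 h, at least 7.49-fold higher than the limit of 3 counts per library. In ZMYND8 cells it went from 2 and 0 to 14 and 15 counts (ratio 12.3, 95% counting interval 3.11 to 106). MMP20, the enamel enzyme, went from 0 and 0 to 5 and 5 counts in GFP cells and from 0 and 1 to 5 and 4 in ZMYND8 cells. MMP7, MMP10 and MMP27 had at most 14 counts in any library of the inducible system. Genes of this cluster thus did not share 1 pattern, since in GFP cells MMP8 fell while MMP1, MMP3 and MMP12 rose. Of the genes at 3 counts or fewer in both untreated libraries, MMP13 in GFP cells (1 of 1) and MMP8, MMP9 and MMP13 in ZMYND8 cells (3 of 3) passed 3 counts in both libraries at 48 h. This happened to 5.95% of 41227 such genes in GFP cells and to 4.93% of 41099 in ZMYND8 cells. Among the 16 further metalloproteinase genes it happened to 4 of 8 in GFP cells (MMP7, MMP12, MMP20 and MMP21) and to 2 of 5 in ZMYND8 cells (MMP12 and MMP20). MMP13 in ZMYND8 cells passed with 4 and 7 counts against 3 and 1, a ratio with a 95% counting interval of 0.69 to 10.03. The genes and lists were picked with earlier results known, so nothing is read from their counts beside these shares. The leukocyte gene MPO also passed 3 counts in both 48 h libraries of GFP cells, from 0 and 0 to 7 and 19 counts. PTPRC, another leukocyte gene, went from 5 and 14 to 76 and 94 counts there. The sum of all 6 leukocyte markers moved little, from 20.3 and 19.1 CPM in untreated GFP cells to 21.8 and 21.4 CPM at 48 h. The part of leukocyte transcripts in the rise of MMP12 was not tested.

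**Figure D4:**
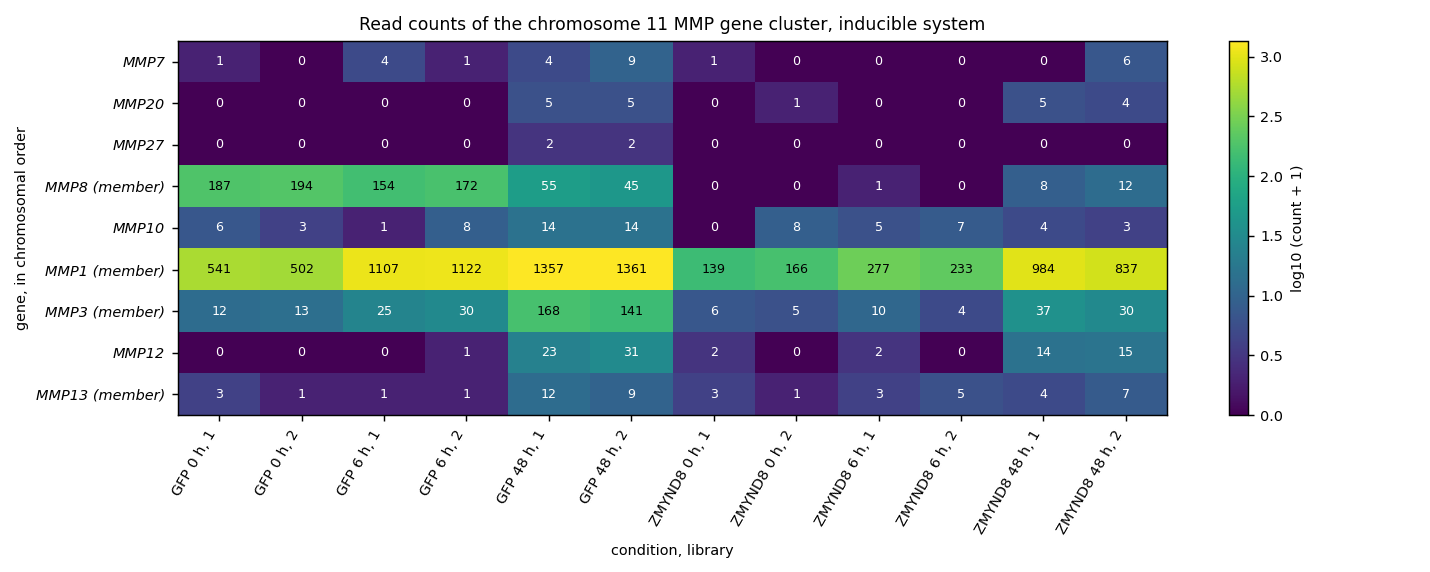
Counts per library of the 9 metalloproteinase genes of 11q22 in their order along chromosome 11, for the 6 inducible conditions. In GFP cells MMP8 declines from 187 and 194 to 55 and 45 counts over 48 h while MMP1, MMP3 and MMP12 increase.

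Other genes of the pathway were taken from 4 lists. Their counts without drug stand beside 28.7% of all 18801 genes higher and 29.5% lower in ZMYND8 cells, and they are descriptions. Of the 16 further metalloproteinase genes, 9 were tested in the inducible system, and without drug 0 were higher and 5 lower in ZMYND8 cells (median -0.54), with MMP16 (-1.94), MMP11 (-1.88) and MMP15 (-1.75) the largest. MMP15, a membrane-type enzyme like MMP14, was at 36.0 and 32.8 CPM in GFP and 9.33 and 10.98 CPM in ZMYND8 cells, but it did not share the fall of MMP14 with drug, standing at 50.6 and 50.1 CPM in GFP cells at 48 h. Over 48 h of doxorubicin 3 rose and 3 fell in GFP cells, and 2 rose and 2 fell in ZMYND8 cells. Among 13 tested inhibitors and activators, 3 were higher and 8 lower in untreated ZMYND8 cells. PLAT, the tissue plasminogen activator, was the largest of these, at 673 and 688 CPM in GFP and 43.7 and 42.8 CPM in ZMYND8 cells (log2 difference -3.98). TFPI2, an inhibitor of plasmin and of some metalloproteinases, rose over 48 h from 36.5 and 39.2 to 187 and 184 CPM in GFP cells (2.29) and from 30.0 and 31.5 to 182 and 185 CPM in ZMYND8 cells (2.57). PLAU, the urokinase, fell by 1.34 and 1.69 on the log2 scale, and in all 2 of the 13 rose and 9 fell in GFP cells and 3 rose and 9 fell in ZMYND8 cells.

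Of 15 tested ADAM and ADAMTS proteases, the related families that shed surface proteins and cut proteoglycans, 4 rose and 10 fell over 48 h in GFP cells (median -0.75), and 2 rose and 12 fell in ZMYND8 cells (median -0.84). Of all genes 32.4% rose and 31.8% fell in GFP cells and 31.6% rose and 30.8% fell in ZMYND8 cells over the same time. ADAM8 fell by 2.13 and 2.39 on the log2 scale. Without drug 3 of the 15 were higher in ZMYND8 cells, led by ADAMTS1 (2.92), and 7 were lower, led by ADAMTS14 (-2.86) and ADAMTS12 (-2.63). Of 17 transcription factors known to act on metalloproteinase promoters, 8 were higher and 6 lower in untreated ZMYND8 cells. FOS, an AP-1 subunit, was at 1.27 and 1.899 CPM in GFP and 14.6 and 14.1 CPM in ZMYND8 cells (3.18), and ATF3 was at 12.5 and 14.5 against 55.2 and 55.1 CPM (2.04). Both rose over 48 h in both lines, FOS by 2.40 and 1.59 and ATF3 by 1.45 and 1.63. ETV1, an ETS factor, fell by 1.68 in GFP and 1.04 in ZMYND8 cells over the same time.

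The genes whose level most resembled that of the 4 most abundant of the 10 genes, by Pearson's r of the mean log2 level over the 6 inducible conditions among 13638 genes, were VWA1 and RAB10 for MMP14 (both 0.999), NBDY (0.997) and SMIM30 (0.994) for TIMP1, MXRA7 and ADK for TIMP2 (both 0.999), and LZTR1 (0.998) and RASA1 (0.997) for TIMP3. Among the 10 genes the highest r was that of MMP8 with MMP9 (0.991), and TIMP2 with TIMP3 gave 0.945, while MMP3 and TIMP1 ran opposite (-0.918). These are descriptions over 6 points that share lines and libraries.

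In the transient system the 3 inhibitors and MMP14 were again the abundant genes, and MMP1 was low, at 6 and 6 counts in control cells. MMP14 was at 514 and 502 CPM in control cells, 341 and 233 CPM with doxorubicin and 348 and 239 CPM in cells labelled FLAG-ZMYND8 plus doxorubicin. TIMP3 was at 347 and 469, 167 and 162, and 179 and 163 CPM, and TIMP2 at 1186 and 1205, 818 and 672, and 703 and 649 CPM. TIMP1 was at 539 and 356, 298 and 261, and 334 and 257 CPM. For all 4 genes both control libraries lay above every treated library. Only TIMP3 was called with doxorubicin against control, at -1.31 (SE 0.21, adjusted p = 0.0093), which is 1 of 4 genes where 5.13% of all genes were called (2.98% higher and 2.15% lower). MMP14 (adjusted p = 0.083), TIMP1 (0.135) and TIMP2 (0.083) were not. In cells labelled FLAG-ZMYND8 plus doxorubicin, TIMP3 (-1.26, SE 0.21, adjusted p = 0.010) and TIMP2 (-0.82, SE 0.21, adjusted p = 0.041) were called against control, 2 of 4 where 6.82% of all genes were called (3.85% higher and 2.97% lower).

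Without replicate 2 of both treated groups none of these calls remained, with TIMP3 at -1.29 (adjusted p = 0.061) and -1.21 (adjusted p = 0.055) and TIMP2 at -0.79 (adjusted p = 0.391). TIMP3 with doxorubicin was also not called without replicate 2 of that group alone (adjusted p = 0.088). The call of TIMP3 in the labelled group was lost without either of its libraries (adjusted p 0.065 and 0.070), and that of TIMP2 when any single library of the comparison was left out (adjusted p 0.062 to 0.203). Between the labelled group and doxorubicin alone, 0 of 4 genes and 0% of all 15697 genes were called by edgeR, with unadjusted p from 0.517 to 0.886 for the 4, and DESeq2 called 0 as well. Of all genes 54 had an unadjusted p of at most 0.05, and 25 (0.159%) passed the study's own cutoffs (unadjusted p of at most 0.05 and a log2 fold change of 1 or more in size). These cutoffs kept 1 of the 4 genes in each comparison with control, TIMP3, beside 8.7% (doxorubicin) and 9.84% (labelled group) of all genes. For MMP8 the control libraries held 3 and 9 counts, the doxorubicin libraries 5 and 19 and the labelled libraries 1 and 1, too few to test. MMP9 had 9 and 3, 2 and 28, and 6 and 3 counts, where the 28 came from the library with 24713822 counts in all. Of the other lists, TFPI2 rose with doxorubicin (1.42, adjusted p = 0.039) and ADAMTS12 fell by 1.34 on the log2 scale (adjusted p = 0.014).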

How the data were processed

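Messenger RNA was measured in 18 libraries of MDA-MB-231 cells. The authors deposited unnormalized counts, 1 column per library. According to the header of each table, featureCounts 1.6.4 assigned read pairs to the exons of GENCODE 31 genes on the reverse strand, and multi-mapping reads were left out. The sources used here name different aligners to hg38 (TopHat in the study's methods, HISAT2 in the submitters' processing notes, which also list Trim Galore and DESeq2), and which one made the counts was not settled. Conditions were taken from the labels, and all columns could be mapped.

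Counts of each system were fitted in edgeR 4.0.16 (R 4.3.3) with TMM scaling, 1 mean per condition and the quasi-likelihood test after the filter by expression, which left 15697 transient and 18801 inducible genes. A gene was called at a Benjamini-Hochberg adjusted p of at most 0.05 over all genes tested. An interaction is the log2 fold change with doxorubicin in ZMYND8 cells minus that in GFP cells. In the inducible system replicates come from 1 line per construct, and p-values measure only the spread between libraries, pooled over the conditions of a system. Levels are CPM, and the SD is that of 2 libraries. Where a group had 0 counts in both libraries a fold is a lower bound against 3 counts per library, and with 1 to 3 counts in a library of such a group it is a ratio of summed counts with an exact 95% interval. Fitted values of these genes depend on the prior count and are not given as folds, except for the MMP9 interaction flagged below.

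The 10 genes, the further lists and the tests were chosen with earlier results of these data known. All 10 genes are described in every comparison. Of the other lists, named genes were called, changed by 1 or more on the log2 scale and had libraries that did not overlap, up to 3 in each direction, of which the text names some; leukocyte genes, MMP7, MMP10, MMP20, MMP21, MMP27 and the values of MMP15 were named after their values were seen. The 2 genes most alike in pattern were named for 4 of the genes. The alternatives were the study's cutoffs, RLE size factors, total counts, no filter, 10 counts in every library, only the groups compared, the replicate block, DESeq2 1.42.0 and leaving out each library. Leaving out replicate 2 of both transient doxorubicin groups was added after seeing the data. The fitting script was tested on simulated data.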

Additional observations from a re-analysis of the deposited data

Results flagged for a closer look

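Tests of the difference in doxorubicin response between ZMYND8 and GFP cells singled out the following values, each tested as an interaction in edgeR. The response of TIMP1 at 6 h was higher in ZMYND8 cells by 0.40 on the log2 scale (SE 0.059, adjusted p = 3.22e-05), rising in both ZMYND8 libraries and falling in both GFP libraries. At 48 h it was higher by 0.30 (SE 0.059, adjusted p = 0.00026), with a fall in both lines. The response of MMP1 at 48 h was higher in ZMYND8 cells by 1.21 (SE 0.12, adjusted p = 1.02e-08). That of MMP9 at 48 h differed by 4.74 (SE 0.95, adjusted p = 0.00032), with opposite directions in the lines. This fitted value depends on the prior count because untreated ZMYND8 cells had 0 and 2 counts. MMP9 passed the low-count filter through its GFP libraries, so the call is not read as support. The responses of MMP14 and TIMP2 at 48 h were both more negative in ZMYND8 cells, by -0.27 (SE 0.065, adjusted p = 0.0023) and -0.27 (SE 0.066, adjusted p = 0.0024).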

How the results depend on the processing

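Of 650 recomputed log2 fold changes of the called genes, 584 kept their direction and their side of the threshold, 66 kept their direction only and none turned. This tally leaves out calls in which 1 group was treated as a bound, and settings in which a filter removed the gene. With the study's cutoffs, counts of called members of the group changed from 7 to 3 for ZMYND8 against GFP cells without drug and from 8 to 3 at 48 h, from 6 to 0 (6 h) and 8 to 5 (48 h) with doxorubicin in GFP cells, from 4 to 0 at 6 h in ZMYND8 cells, from 1 to 0 and 5 to 1 for the interactions at 6 and 48 h, and from 2 to 1 for the labelled transient group against control. Requiring 10 counts in every library, which removes the low genes, left 4 at 6 h and 5 at 48 h for ZMYND8 against GFP cells, and 5 in each line at 48 h of doxorubicin. The interaction at 6 h, 1 in the text, was called for 2 genes with RLE size factors, no filter, 10 counts or DESeq2, for 4 with total counts, and for 1 to 2 when a library was left out. In the transient system doxorubicin against control, 1 in the text, gave 2 without a filter, 3 with DESeq2, 0 to 2 when a library was left out and 0 without replicate 2 of both doxorubicin groups. The labelled group against control, 2 in the text, gave 1 with total counts or only the groups compared, 0 to 1 when a library was left out and 0 without both replicates 2. The cause of these shifts was not tested.

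With the replicate block, 4 genes were called in each of these 2 transient comparisons (2410 and 2795 of all genes, against 805 and 1071); deviations of same-numbered libraries correlated at 0.21 to 0.40 (transient) and -0.046 to 0.022 (inducible). No label says what a number shares, and with 2 numbers per group the transient correlation is a hint and was not taken as pairing. It moved no other count of called members by over 1.5 times. Over all genes, the study's cutoffs called 1366 for doxorubicin against control, and for the labelled group against doxorubicin 25, with 17 without a filter. They called 2150, 1994 and 1775 for ZMYND8 against GFP cells, 885 and 2491 with doxorubicin in GFP cells, 513 and 2336 in ZMYND8 cells, and 377 and 695 for the interactions, against 10954, 10438, 11288, 9014, 12077, 7674, 11718, 2515 and 5371. No filter gave 1505 and 1774 in the transient comparisons with control, and leaving out 1 library gave as few as 96 (doxorubicin replicate 2) and 127 (labelled replicate 1). The share of higher calls moved under total counts from 58.1% to 78.0% and 56.5% to 73.8% in these, from 50.4% to 68.1% (GFP) and 50.6% to 66.9% (ZMYND8) at 48 h, from 53.5% to 39.7% at 6 h in ZMYND8 cells and from 58.8% to 32.2% for the interaction at 6 h. Depth limits MMP2, MMP3, MMP8, MMP9 and MMP13, whose values rest on few counts.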
